A study of Mus musculus with 12 samples.

Results

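Marker genes of leukocytes other than macrophages were followed through cultures of adherent mouse peritoneal cells. The list holds 40 genes, of 47729 gene rows in the count matrix, and each of the 40 was found by its symbol. They comprise 9 genes of B cells, 9 of T and natural killer (NK) cells, 6 of mast cells, 4 of eosinophils, 8 of neutrophils and 4 of dendritic cells. Membership was set by gene name, not by a measured value, though the list was chosen with earlier results of these data known. Of the 40 genes, 28 had enough reads to be tested, and the other 12 (Cd3d, Gzma, Fcer1a, Epx, Prg2, S100a9, Ltf, Ngp, Mpo, Elane, Retnlg and Xcr1) are described by their counts.

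The study measured polyA-selected RNA from cells washed out of the peritoneum of C57BL/6 mice, which are wild-type laboratory mice. TG mice had received 3% thioglycollate 4 days before collection, an irritant that draws leukocytes into the peritoneal cavity. IL4c mice had received 2 injections of 5 ug IL-4 complexed with 25 ug antibody, the last one 2 days before collection. From a 7 ml lavage, 3000000 cells were seeded per well, and cells that had not attached after 2 h were removed by 3 washes. Wells of each injection were then left untreated or given 20 ug/ml SPARC, a secreted matrix-associated protein, for 24 h, so that the 4 groups, TG untreated, TG SPARC, IL4c untreated and IL4c SPARC, hold 3 libraries each. All groups share the strain, the lavage and the adherence step, and no group without an injection and no control protein for SPARC is among these libraries. Libraries carry numbers 1 to 3 in each group, and a pair here means the untreated and the SPARC well with the same injection and number. Whether the numbers stand for separate mice is not stated in the labels. Each p-value therefore rests on variation between these wells, part of which may be technical.

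As background, adherence enriches macrophages because they attach to plastic quickly, while lymphocytes, mast cells and granulocytes mostly stay loose. The mouse peritoneal cavity normally holds many B cells next to its macrophages, along with mast cells, eosinophils, T cells and dendritic cells. Most markers used here are parts of lineage machinery: the B cell receptor chains Cd79a and Cd79b, the CD3 chains of the T cell receptor, the proteases stored in mast cell granules, the granule proteins of eosinophils and neutrophils, and the growth factor receptor and transcription factors of dendritic cells. Some are less exclusive, since activated macrophages can express S100a8 and some macrophages Il7r. In RNA from a whole well, fewer cells of a type and less RNA per cell cannot be told apart.

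Libraries held 31501941 to 42288785 estimated counts, so that 3 counts corresponded to 0.0707 to 0.0974 CPM (counts scaled to library size, scaled by trimmed mean of M values). Levels below are CPM unless counts are named. The macrophage list of 9 genes, which checks the labelled cell type, summed to 11590 to 34670 CPM and exceeded every member lineage in each library. The mean within-pair log2 ratio of its sum was 0.10 ± 0.31 (SD, n = 3 pairs) in TG and -0.75 ± 0.085 (SD, n = 3 pairs) in IL4c. Lyz2, a lysozyme and the most abundant gene of this list, averaged 16660 CPM, followed by Lgals3 with 1950 CPM. The sum thus mostly followed Lyz2, whose mean in IL4c was 16050 CPM untreated and 6618 CPM with SPARC. Adgre1 had means of 2309 and 2719 CPM there. The median log2 fold change of the 9 genes was 0.154 in TG and -0.00839 in IL4c. Over the 9 macrophage genes, 0 passed with SPARC in TG, while Fcgr1 rose and Lyz2 and Mertk fell in IL4c. With the numbered pairs as a block, genes that rose in TG included Adgre1, Fcgr1 and Cd14, and Mertk and Lgals3 fell. The IL4c calls with the block were again Fcgr1, Lyz2 and Mertk. The summed markers of mesothelial cells and fibroblasts ranged from 5.94 to 220.6 CPM, led by Dcn and Col1a2. This sum was higher with SPARC in 6 of 6 pairs, but its genes did not all rise. In the TG libraries numbered 2 and 3, Wt1 had 131 and 118 counts untreated and 36 and 38 with SPARC. Lrrn4 went from 80 and 51 to 4 and 6 there, and Dcn from 767 and 662 to 595 and 576. The collagen genes Col1a1, Col1a2 and Col3a1 had more counts with SPARC in these pairs. Platelet genes ranged from 35.8 to 785.6 CPM in sum, almost all of it Pf4, ahead of Ppbp, and this sum was also higher with SPARC in 6 of 6 pairs. That rise was one of Pf4, and the other platelet genes did not all share it. Ppbp went from 12 and 24 counts to 8 and 13 in IL4c pairs 1 and 2, and rose in the other pairs. Itga2b had 8 to 19 counts in each library, Gp9 at most 1 and Gp1bb at most 1.35. Red blood cell genes, led by Hbb-bs and Hba-a2, stayed between 0.735 and 4.29 CPM. The part of these other cells in the results below was not tested.

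With SPARC in TG, 1 of the 28 tested members rose and none fell, against 6.73% of all 15232 tested genes called higher and 4.52% called lower (edgeR's quasi-likelihood test, adjusted p under 0.05). With SPARC in IL4c, 2 members rose and 2 fell, against 15.1% and 12.7% of all genes. Libraries with the same number deviated together within each injection, and with these pairs as a block the SPARC calls became 5 higher and 9 lower in TG (background 14.3% and 13.1%) and 2 higher and 14 lower in IL4c (background 22.8% and 22.4%). Counted by sign, 11 of the 28 tested members, or 39.3%, were lower with SPARC in 6 of 6 pairs, against 21.9% of all tested genes. The 11 were the 9 B cell genes, Il7r and Il5ra. Another 3 members, Lck, S100a8 and Camp, or 10.7%, were higher in 6 of 6 pairs, against a background of 20.7%.

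**Figure D1:**
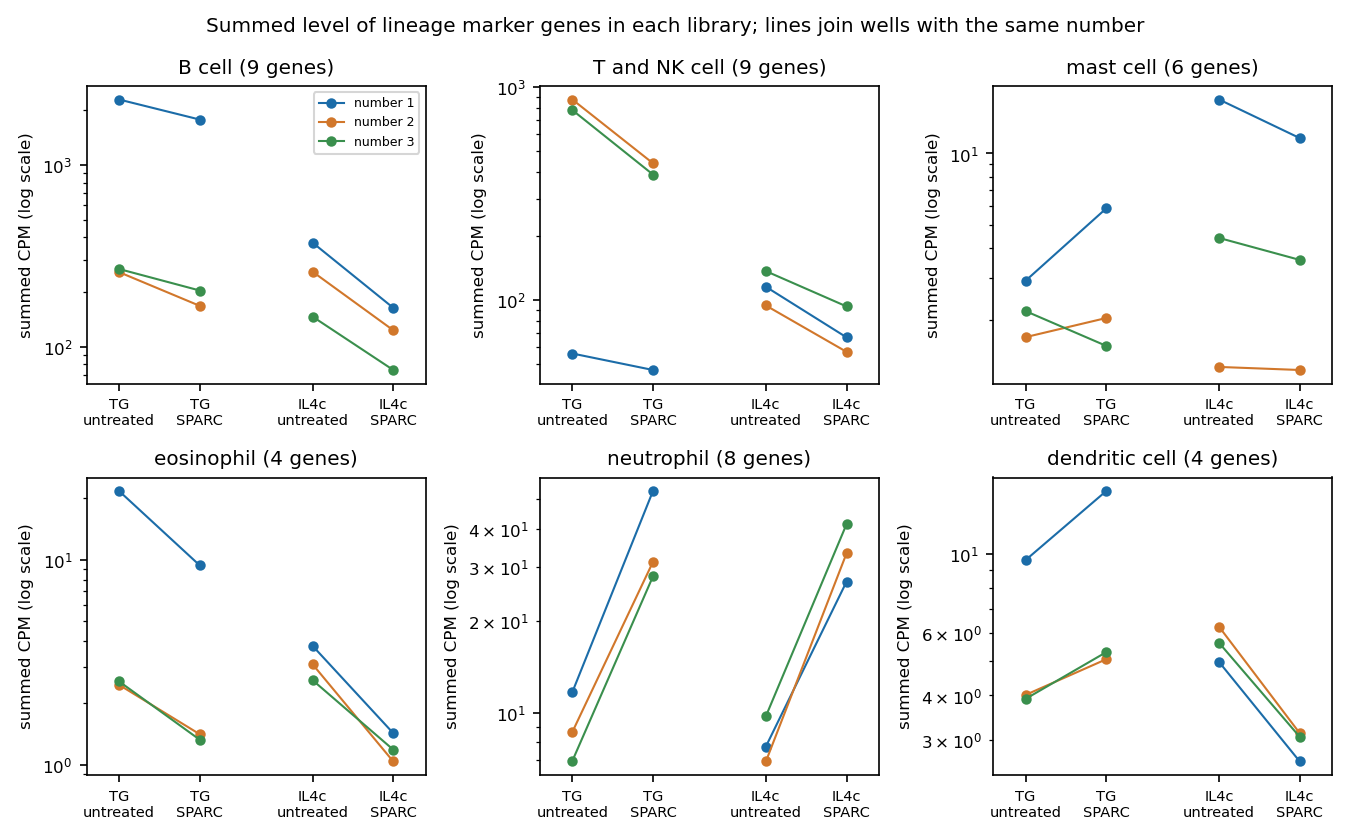
Summed CPM of the members of each lineage (log scale) in the 12 libraries, with a line joining the untreated and the SPARC well of each number and injection. B cell sums are lower with SPARC in all 6 pairs and neutrophil sums are higher, while dendritic cell sums go up in the 3 TG pairs and down in the 3 IL4c pairs.

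The B cell genes were lower with SPARC in every pair and were abundant enough for each of the 9 to be tested. Their sum was 2292, 257 and 268 CPM in the TG untreated libraries numbered 1, 2 and 3, and 1778, 168 and 204 CPM in the TG SPARC libraries. In IL4c it was 374, 259 and 146 CPM untreated and 164, 123 and 74.5 CPM with SPARC. Every pair thus had a lower B cell sum with SPARC, by a mean log2 ratio of -0.46 ± 0.14 (SD, n = 3 pairs) in TG and -1.08 ± 0.11 (SD, n = 3 pairs) in IL4c. Ighm made up 25.5% to 70.7% of this sum and Cd22 4.17% to 52.2%. By the median of the members' log2 values, the mean within-pair ratio was -1.082 in TG and -1.248 in IL4c. Without the pairs as a block, 0 of the 9 genes were called in TG and 1, Cd22, fell in IL4c. With the block, 7 of 9 fell in TG and 9 of 9 in IL4c. With both TG libraries numbered 1 left out, the blocked fit called 7 of 9 lower in TG, against 12.2% of all genes, and 9 of 9 in IL4c, against 26.4%. In TG the 7 then included Ighm (edgeR adjusted p = 0.0115) and no longer Ebf1 (edgeR adjusted p = 0.0527).

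**Figure D2:**
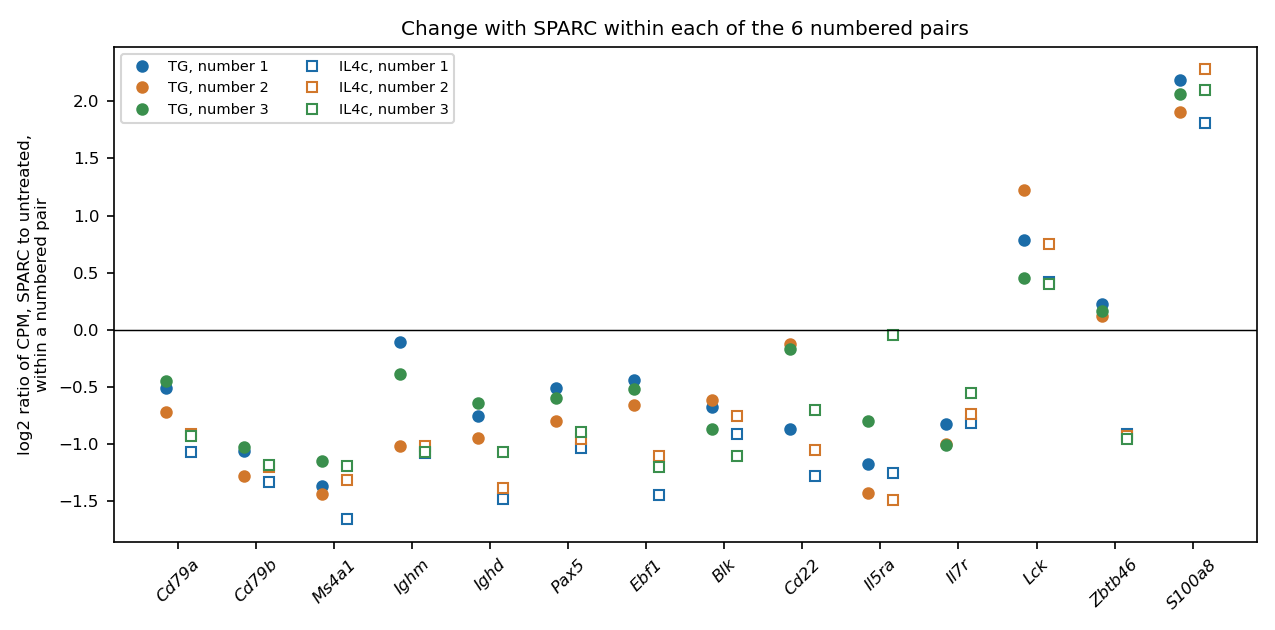
Log2 ratio of CPM, SPARC to untreated, within each numbered pair for 14 members, with filled circles for TG, open squares for IL4c and colours for the number. The 9 B cell genes, Il5ra and Il7r lie below 0 in all 6 pairs, Lck and S100a8 lie above 0, and Zbtb46 is on opposite sides in the 2 injections.

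Ighm, the constant region of the IgM heavy chain, had the highest level among the B cell genes. It stood at 1356, 86.9 and 102 CPM in TG untreated and 1257, 42.9 and 77.8 CPM in TG SPARC, in the order of the numbers. In IL4c it stood at 172, 107 and 58.6 CPM untreated and 81.2, 52.5 and 27.9 CPM with SPARC. Both TG libraries numbered 1 lay an order of magnitude above the rest, so the groups overlapped. The log2 fold change was -0.17 ± 1.31 (SE, edgeR adjusted p = 0.958) in TG, and with the block it was -0.50 ± 0.155 (edgeR adjusted p = 0.0502). In IL4c it was -1.06 ± 1.32 (edgeR adjusted p = 0.597), and with the block -1.06 ± 0.156 (edgeR adjusted p = 0.00165).

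Cd79a, a signalling chain of the B cell receptor, stood at 188, 15.5 and 14.5 CPM in TG untreated and at 132, 9.36 and 10.6 CPM in TG SPARC. In IL4c its levels were 34.7, 24.0 and 12.1 CPM untreated and 16.5, 12.7 and 6.35 CPM with SPARC. With the block it fell by 0.56 ± 0.073 on the log2 scale in TG (SE, edgeR adjusted p = 0.00205) and by 0.97 ± 0.0743 in IL4c (edgeR adjusted p = 0.000122). Without the block its adjusted p was 0.832 and 0.585.

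Cd22, a sialic acid-binding receptor that restrains B cell receptor signals, followed another pattern. It stood at 136, 95.8 and 96.0 CPM in TG untreated and 74.1, 87.7 and 85.4 CPM in TG SPARC. In IL4c it stood at 49.2, 38.7 and 34.5 CPM untreated and 20.2, 18.6 and 21.2 CPM with SPARC. The TG libraries numbered 1 were not set apart, and SPARC and untreated libraries did not overlap in either injection. It fell with SPARC in IL4c by 1.03 ± 0.164 on the log2 scale (SE, edgeR adjusted p = 0.00167), a call kept without each library in turn. In TG its change of -0.41 ± 0.161 did not pass (edgeR adjusted p = 0.14, and 0.13 with the block). It was lower in IL4c than in TG both untreated (log2 -1.42 ± 0.165, edgeR adjusted p = 0.000898) and with SPARC (log2 -2.04 ± 0.168, edgeR adjusted p = 0.00013). An exon of Cd22 shares bases with Gm29439 on the opposite strand in GENCODE M21, and the strand setting of the counting is not given in the sources used here.

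The promoters of Cd79a and Cd22 are shown because, of the 4 B cell members with a promoter in the table, Cd79a shared the excess in the TG libraries numbered 1 described below and Cd22 did not. Both come from RefSeq (GRCm38.p6), run from 250 bases before to 50 bases after the start, and lie at chr7:24897247-24897546 on the plus strand and chr7:30878979-30879278 on the minus strand. Capitals mark matches to CCCNNGGG, a core of the motif bound by the B cell factor EBF1, searched on both strands.
Cd79a: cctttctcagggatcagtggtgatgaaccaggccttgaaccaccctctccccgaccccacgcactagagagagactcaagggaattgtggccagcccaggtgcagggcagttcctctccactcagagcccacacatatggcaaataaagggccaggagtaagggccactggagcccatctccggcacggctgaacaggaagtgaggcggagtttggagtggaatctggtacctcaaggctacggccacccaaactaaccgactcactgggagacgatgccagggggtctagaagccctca
Cd22: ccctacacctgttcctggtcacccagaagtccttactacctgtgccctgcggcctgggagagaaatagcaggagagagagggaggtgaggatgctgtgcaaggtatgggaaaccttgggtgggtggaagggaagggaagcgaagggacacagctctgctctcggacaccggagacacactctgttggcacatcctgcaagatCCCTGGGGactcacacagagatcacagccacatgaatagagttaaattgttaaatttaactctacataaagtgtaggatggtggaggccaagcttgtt
Cd22 held 1 exact match, Cd79a none, and 1 of the 4 B cell members with a promoter in the table had one, against 13.7% of all 32851 promoters. Cd79a holds ctcaaggg, which departs from the searched letters at 1 base and is therefore not marked. A match is a description of letters, not a bound site, and the lack of an exact match does not show that a site is absent.

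The other B cell members had pair ratios of the same sign as Cd79a. Cd79b, the partner chain of Cd79a, and Ms4a1, which encodes CD20, had within-pair log2 ratios of -1.33 to -1.02 and -1.66 to -1.15. Ighd, the IgD constant region, ranged from -1.48 to -0.64. The transcription factors Pax5 and Ebf1, which set B cell identity, ranged from -1.04 to -0.51 and -1.45 to -0.44. The kinase Blk ranged from -1.11 to -0.62. All 6 of these genes fell in both injections with the block, and 0 of 6 were called without it.

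Within the B cell genes the ratios of counts were not constant. Relative to Cd79a counts, Ms4a1 was lower with SPARC in 6 of 6 pairs, with a mean log2 ratio of -0.59 ± 0.22 (SD over 6 pairs). Cd79b relative to Cd79a was also lower in 6 of 6 pairs, by a mean of -0.41 ± 0.16, and Ighd by -0.28 ± 0.13. Pax5 kept its ratio to Cd79a, with a mean of -0.03 ± 0.071, and Ighm had a mean of -0.02 ± 0.24. Ms4a1, Cd79b and Ighd were thus lower relative to Cd79a in each pair, which Pax5 and Ighm were not. Cd22 counts were 0.722 and 0.563 times those of Cd79a in the TG libraries numbered 1 but 6.19 to 9.37 times in the other 4 TG libraries, and 1.22 to 3.34 times in IL4c.

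A second B cell list of 14 genes showed the same direction less evenly. Without the block 0 of the 14 were called with SPARC in either injection, and with it 7 fell in TG, while 10 fell and 1 rose in IL4c. The median log2 fold change of the 14 was -0.51 in TG and -0.95 in IL4c, beside -0.54 and -1.06 for the 9 members and -0.03 and -0.00 for all tested genes. Its summed level averaged 574 CPM in TG untreated, 485 in TG SPARC, 140.2 in IL4c untreated and 104 in IL4c SPARC. This sum did not fall in every pair, with log2 ratios of -0.47, 0.044 and 0.141 in TG pairs 1, 2 and 3. The mean in IL4c was -0.404 ± 0.297 (SD, n = 3 pairs). The most abundant gene of the list was Bhlhe41, with a mean of 119 CPM, which was lower in IL4c than in TG untreated (log2 -2.18 ± 0.565, edgeR adjusted p = 0.024). Bhlhe41 had 3200, 8838 and 8552 counts in TG untreated and 2212, 9637 and 9423 in TG SPARC. In IL4c it had 1379, 1008 and 1580 counts untreated and 2066, 1424 and 2658 with SPARC. The immunoglobulin light chain gene Igkc came next with a mean of 83.3 CPM.

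The TG libraries numbered 1 stood apart for lymphocyte genes in both treatments. Of the 28 tested members, 12 (42.9%) were at least 5-fold above the mean of the other 2 TG libraries of the same treatment in both the untreated and the SPARC well, against 2.38% of all tested genes. They were 8 of the 9 B cell genes, at 7.86-fold (Ighd, untreated) to 20.8-fold (Ighm, SPARC), together with Cd3g, Lck, Il5ra and Camp. Camp had few reads in this comparison, 6 in the untreated library numbered 1 against 1 and 0. Cd22 was the exception among the B cell genes, at 1.41 times the others untreated and 0.857 times with SPARC. Il7r went the other way and was the only tested member 5-fold or more below the others in both treatments, against 1.88% of all genes. The untreated and the SPARC well of this number thus departed from the other TG libraries in the same members. Markers of other cells also differed in these libraries: the summed mesothelial and fibroblast genes stood at 5.94 and 30.6 CPM against 114 to 221 in the other 4 TG libraries, and the summed platelet genes at 237 and 786 CPM against 35.8 to 97.6. Their part in these results was not tested.

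**Figure D3:**
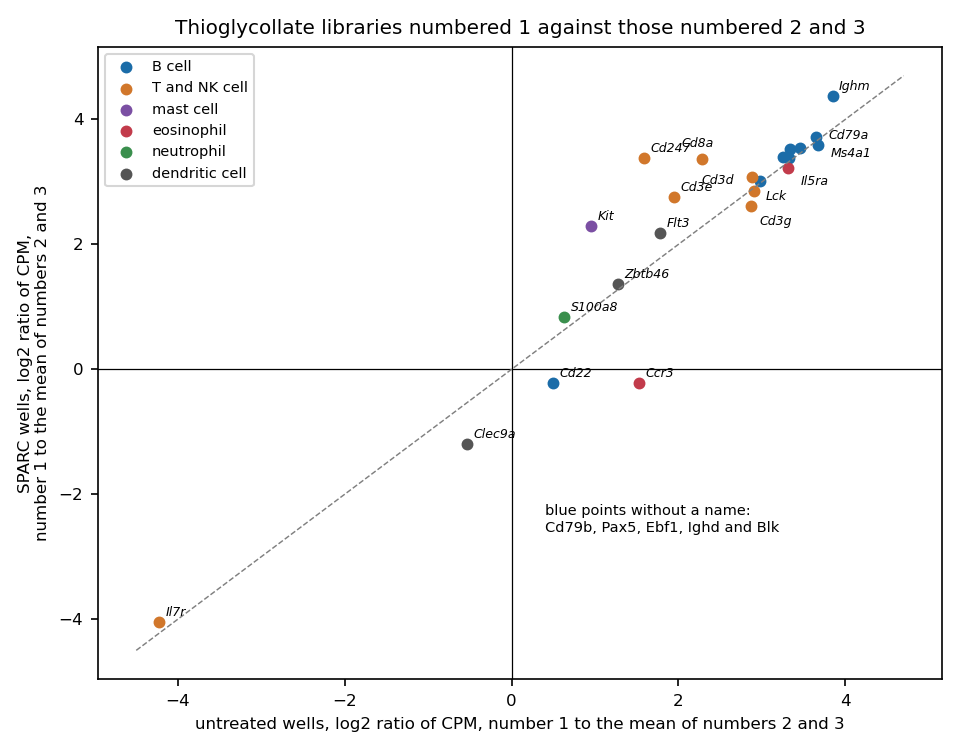
Log2 ratio of CPM in the TG libraries numbered 1 to the mean of those numbered 2 and 3, untreated wells on the horizontal axis and SPARC wells on the vertical axis, for members with at least 5 counts in every TG library; the dashed line marks equal ratios. B cell genes, Il5ra, Lck and the CD3 genes sit at the upper right, Cd22 near 0 and Il7r at the lower left.

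Among the T and NK cell members, Il7r made up 53% to 99.8% of the summed level. It encodes the interleukin-7 receptor alpha chain, found on lymphocytes and also on some macrophages. Its levels in order of the numbers were 44.1, 873 and 779 CPM in TG untreated and 24.9, 436 and 386 CPM in TG SPARC. In IL4c they were 114, 92.8 and 136 CPM untreated and 64.7, 55.7 and 92.4 CPM with SPARC. SPARC wells were lower in every pair, and the TG libraries numbered 1 were 18.7-fold and 16.5-fold below the other TG libraries. With the block it fell by 0.95 ± 0.0783 on the log2 scale in TG (SE, edgeR adjusted p = 0.000434) and by 0.70 ± 0.078 in IL4c (edgeR adjusted p = 0.00049). Without the block its adjusted p was 0.589 and 0.656.

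The genes of the T cell receptor complex were near the detection floor outside the TG libraries numbered 1. Cd3e, a CD3 chain, had 62, 14 and 15 counts in TG untreated and 109, 22 and 12 in TG SPARC. It had 7, 6 and 2 counts in IL4c untreated and 5, 6 and 2 in IL4c SPARC. It was lower in IL4c than in TG with SPARC (log2 -3.66 ± 0.997, edgeR adjusted p = 0.0281), and this call was lost without TG SPARC 1, where the log2 value was -2.13, and without each of the IL4c SPARC libraries (edgeR adjusted p = 0.0789 or more in these 4 fits). Cd3d had at most 52 counts 4 or fewer in each IL4c library, Cd8a had at most 74, and the cytotoxic granule gene Gzma at most 3.

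Lck, a kinase of T cell receptor signalling that peritoneal B cells can also express, was higher with SPARC in 6 of 6 pairs. It had 228, 24 and 31 counts in TG untreated and 305, 51 and 38 in TG SPARC. In IL4c it had 25, 16 and 22 counts untreated and 41, 33 and 30 with SPARC. Its direction was opposite to that of the B cell genes within every pair although it shared their excess in the TG libraries numbered 1. With the block it rose in TG by 0.82 ± 0.193 on the log2 scale (SE, edgeR adjusted p = 0.0197), whereas in IL4c the change of 0.51 ± 0.222 did not pass (edgeR adjusted p = 0.0992). Nkg7, a granule protein of cytotoxic cells, rose with the block in TG as well (log2 1.8 ± 0.437, edgeR adjusted p = 0.0271), from 19, 4 and 3 counts to 45, 19 and 8. Neither was called without the block. An exon of Lck contains the microRNA gene Mir8119 in GENCODE M21.

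In the second list of 20 T and NK cell genes, 13 were tested, 1 fell with SPARC in each injection, and 0 rose. With the block Cd2 fell as well in IL4c. Its sum averaged 32.3 CPM in TG untreated, 24.3 in TG SPARC, 23.5 in IL4c untreated and 5.98 in IL4c SPARC. The gene that fell was Cd28, a costimulatory receptor and the most abundant of the list, by 2.76 ± 0.62 on the log2 scale in TG (SE, edgeR adjusted p = 0.0211) and by 3.16 ± 0.628 in IL4c (edgeR adjusted p = 0.00511). Cd28 stood at 8.37, 11.6 and 17.9 CPM in TG untreated, above the summed Cd3d, Cd3e and Cd3g in each of these libraries. Cd2, an adhesion receptor and the next most abundant, had a mean of 5.07 CPM and its highest levels, 20.4 and 15.1 CPM, in the TG libraries numbered 1.

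Reads of the mast cell proteases among the members came mainly from IL4c, and there the libraries numbered 1 held the most in both treatments. Cma1, a chymase, had 162, 10 and 52 counts in IL4c untreated and 153, 12 and 34 in IL4c SPARC, in the order of the numbers. It had 0, 4 and 8 counts in TG untreated and 2, 10 and 4 in TG SPARC. For Cma1 the order 1, 3, 2 was the same in both treatments of IL4c, and the untreated groups of the 2 injections did not overlap. Cma1 was higher in IL4c than in TG untreated (log2 4.44 ± 1.39, edgeR adjusted p = 0.0478). That call was lost without any 1 of 8 libraries, all 3 TG untreated ones, TG SPARC 2 and 3, IL4c untreated 1 and 3, and IL4c SPARC 3, with adjusted p of 0.0595 or more. Its log2 value was 3.00 without IL4c untreated 1 and 5.44 without TG untreated 3.

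**Figure D4:**
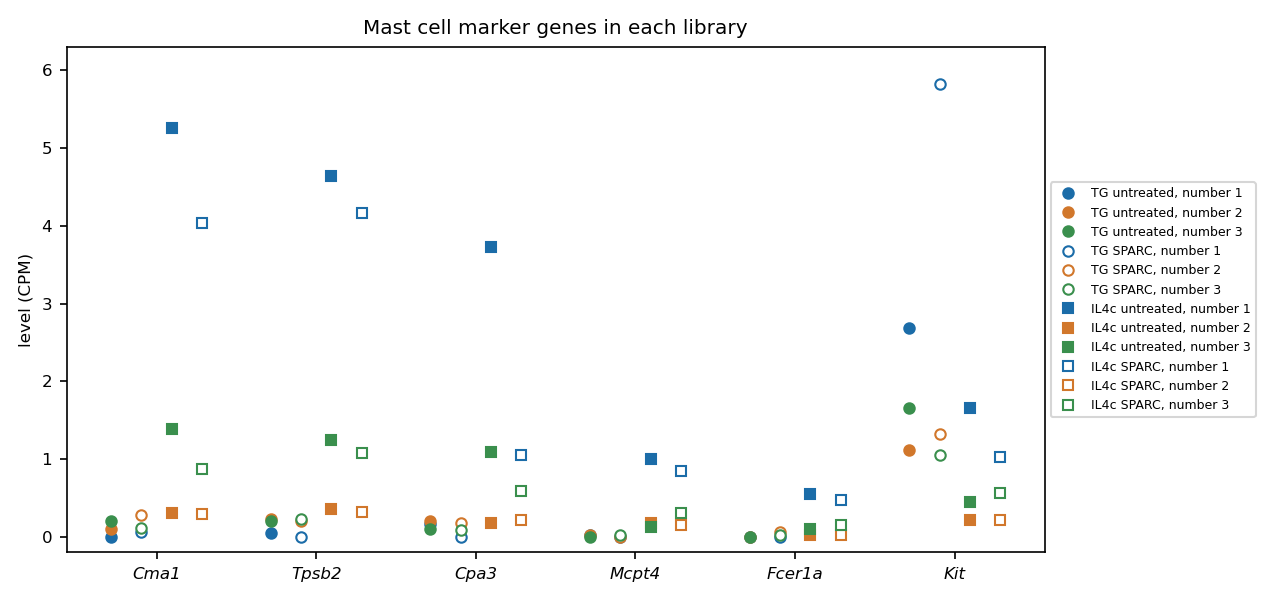
Level in CPM of the 6 mast cell members in each library, with circles for TG, squares for IL4c, filled symbols for untreated and open symbols for SPARC wells, and colours for the number. Cma1, Tpsb2 and Mcpt4 are highest in both IL4c libraries numbered 1, whereas Kit is highest in the TG SPARC library numbered 1.

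Tpsb2, a tryptase, had 143, 12 and 47 counts in IL4c untreated and 158, 13 and 42 in IL4c SPARC, against 2, 9 and 8 in TG untreated and 0, 7 and 8 in TG SPARC. Its excess in IL4c did not pass either untreated (log2 3.65 ± 1.27, edgeR adjusted p = 0.0668) or with SPARC (edgeR adjusted p = 0.0719). Mcpt4, another chymase, had 31, 6 and 5 counts in IL4c untreated and 32, 6 and 12 in IL4c SPARC, against 2 counts in all TG untreated libraries together and 1 in all TG SPARC libraries. The ratio of its summed counts, corrected for library size, was 24.6 untreated (95% exact interval 6.4 to 210, counting error only) and 43.3 with SPARC (7.43 to 1740). It was called higher in IL4c both untreated (edgeR adjusted p = 0.0287) and with SPARC (edgeR adjusted p = 0.0248). The calls were lost without TG untreated 2 or 3 or IL4c untreated 1, and without any TG SPARC library or IL4c SPARC 1, with adjusted p of 0.0602 or more. IL4c untreated 1 held 31 of the 42 counts, and without it the fitted log2 value was 3.00, beside 4.44 with it. With SPARC the fitted value of 5.04 became 4.14 without IL4c SPARC 1 and 7.02 without TG SPARC 3. Cpa3, a mast cell carboxypeptidase, had 115, 6 and 41 counts in IL4c untreated and 40, 9 and 23 with SPARC, so that pairs 1 and 3 were lower with SPARC and pair 2 was higher, and it had at most 8 in any TG library. Fcer1a, the IgE receptor alpha chain, had 22 and 25 counts in all over the IL4c groups and 0 and 3 over the TG groups. Tryptase and chymase genes belong to families of close copies, so their reads could be split among relatives.

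Kit, the stem cell factor receptor, did not share the excess of the proteases in IL4c over TG. It had 114, 43 and 63 counts in TG untreated and 191, 46 and 36 in TG SPARC, and 51, 7 and 17 in IL4c untreated and 39, 9 and 22 in IL4c SPARC. Within IL4c its order of the numbers was 1, 3, 2 in both treatments, as for Cma1. Kit made up as much as 99% of the mast cell sum, a share reached in a TG library numbered 1, and as little as 8.86%. Its difference between IL4c and TG did not pass untreated (log2 -1.24 ± 0.88, edgeR adjusted p = 0.34) or with SPARC (log2 -2.17 ± 0.898, edgeR adjusted p = 0.111). With SPARC, 0 of the 5 tested mast cell members were called in either injection, with or without the block. In the second list of 8 mast cell genes, 0 of the 5 tested were called with SPARC without the block, and with it 1 rose and 1 fell in IL4c. The one that rose was Tpsab1, a tryptase closely related to Tpsb2, from 52, 5 and 12 counts to 140, 45 and 26 (log2 1.52 ± 0.436, edgeR adjusted p = 0.0257 with the block and 0.38 without), while Tpsb2 did not pass (edgeR adjusted p = 0.602 with the block). The sum of that list averaged 1.45 CPM in TG untreated, 1.44 in TG SPARC, 6.02 in IL4c untreated and 5.66 in IL4c SPARC. Its most abundant genes were Il1rl1, the interleukin-33 receptor, with a mean of 1.35 CPM, and Hdc, the histamine-forming enzyme, with 0.954 CPM.

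Comparing the injections, 2 members were higher and 2 lower in IL4c than in TG among untreated wells, against 10.2% and 10.8% of all tested genes. Among SPARC wells 1 was higher and 4 were lower, against 10.9% and 10.1%. The calls were Cma1 and Mcpt4 (higher) and Cd22, Flt3, Cd3e and Clec9a (lower). Without both TG libraries numbered 1, 2 were higher and 3 lower untreated, and 1 higher and 5 lower with SPARC. Of all genes, 38.8% and 36.1% were then called. Il7r was lower in IL4c untreated (log2 -2.85, edgeR adjusted p = 7.52e-05) and with SPARC (log2 -2.55, edgeR adjusted p = 0.000117). Zbtb46 was higher untreated (edgeR adjusted p = 0.000504) and Camp with SPARC (edgeR adjusted p = 0.00751). Cma1 and, with SPARC, Mcpt4 no longer passed.

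The eosinophil members split into granule genes at the floor and receptors that were measurable. Epx, the eosinophil peroxidase, had 2 counts in TG SPARC 1 and 0 in the other 11 libraries. Prg2, the major basic protein, had 3, 1 and 0 counts in TG untreated, 1, 1 and 0 in TG SPARC, 0, 0 and 2 in IL4c untreated and 1, 0 and 0 in IL4c SPARC. Il5ra, the interleukin-5 receptor alpha chain, which innate-like B cells carry as well, had 859, 77 and 78 counts in TG untreated and 294, 26 and 40 in TG SPARC. In IL4c it had 95, 64 and 40 counts untreated and 49, 28 and 40 with SPARC. Like 8 of the B cell genes it was far higher in the TG libraries numbered 1, by 9.98-fold untreated and 9.32-fold with SPARC. It was lower with SPARC in 6 of 6 pairs, but IL4c pair 3 had 40 counts in both wells (log2 ratio -0.05), and there its ratio to Cd79a was higher with SPARC by 0.88 on the log2 scale. The counts of Il5ra stayed between 0.0544 and 0.162 times those of Cd79a in all 12 libraries, while Cd79a itself ranged from 6.35 to 188 CPM. With the block Il5ra fell by 1.13 ± 0.257 on the log2 scale in TG (SE, edgeR adjusted p = 0.0173) and by 0.95 ± 0.28 in IL4c (edgeR adjusted p = 0.0276), and without it the adjusted p was 0.547 and 0.542.

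Ccr3, the eotaxin receptor, had 56, 16 and 19 counts in TG untreated and 11, 22 and 5 in TG SPARC. In IL4c it had 22, 38 and 55 counts untreated and 4, 14 and 6 with SPARC, and those groups did not overlap. It fell with SPARC in IL4c by 2.44 ± 0.665 on the log2 scale (SE, edgeR adjusted p = 0.0219, and 0.0105 with the block). Without the block the call was lost when IL4c untreated 2 or 3, or IL4c SPARC 1 or 3, was left out (edgeR adjusted p = 0.0614 to 0.0798), and the value was -3.06 without IL4c SPARC 2. In TG the change of -1 ± 0.636 did not pass (edgeR adjusted p = 0.36), and pair 2 was higher with SPARC. The second eosinophil list of 7 genes had 3 tested, 0 called with SPARC without the block and 1 lower in each injection with it. Its sum averaged 8.5 CPM in TG untreated, 3.36 in TG SPARC, 4.54 in IL4c untreated and 3.27 in IL4c SPARC. Ear2, an eosinophil-associated ribonuclease that macrophages can express, averaged 2.53 CPM and Siglecf, a lectin of eosinophils and of some macrophages, 1.67 CPM.

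Among the neutrophil members only S100a8 and Camp had reads enough for a test, and both were higher with SPARC. S100a8, a calcium-binding alarmin subunit, made up 91.7% to 98.4% of the neutrophil sum. It stood at 11.4, 8.14 and 6.57 CPM in TG untreated and 51.6, 30.4 and 27.5 CPM in TG SPARC. In IL4c it stood at 7.24, 6.36 and 9.13 CPM untreated and 25.5, 30.8 and 39.2 CPM with SPARC. All SPARC libraries lay above all untreated ones. The log2 fold change was 2.07 ± 0.293 in TG (SE, edgeR adjusted p = 0.00354) and 2.07 ± 0.294 in IL4c (edgeR adjusted p = 0.000965). Both calls were kept without each library in turn, and the difference between the injections was -0.00 ± 0.418 (edgeR adjusted p = 1).

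S100a9, the partner with which S100a8 forms calprotectin in neutrophils, was not raised to a measurable level. It had 0, 0 and 0 counts in TG untreated, 3, 1 and 0 in TG SPARC, 1, 3 and 1 in IL4c untreated and 0, 1 and 0 in IL4c SPARC. In the same libraries S100a8 had 210 to 1695 counts. The 2 genes lie 22596 bases apart on chromosome 3 in GENCODE M21 (GRCm38), S100a8 at chr3:90668978-90670035 on the plus strand and S100a9 at chr3:90692632-90695721 on the minus strand. Neither shares an exon with another annotated gene.

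The promoters of these neighbours are shown because 1 was well covered in every library and the other had almost no reads. They come from RefSeq (GRCm38.p6) over the same 300-base window, at chr3:90668821-90669120 and chr3:90695672-90695971. Capitals mark matches to TTNNGNAA, an incomplete form of the site bound by C/EBP factors, searched on both strands.
S100a8: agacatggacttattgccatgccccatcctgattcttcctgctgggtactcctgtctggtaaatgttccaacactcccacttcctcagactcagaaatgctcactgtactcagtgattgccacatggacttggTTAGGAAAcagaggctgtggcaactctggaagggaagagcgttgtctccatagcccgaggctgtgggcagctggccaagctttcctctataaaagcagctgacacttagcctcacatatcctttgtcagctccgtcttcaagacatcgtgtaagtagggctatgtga
S100a9: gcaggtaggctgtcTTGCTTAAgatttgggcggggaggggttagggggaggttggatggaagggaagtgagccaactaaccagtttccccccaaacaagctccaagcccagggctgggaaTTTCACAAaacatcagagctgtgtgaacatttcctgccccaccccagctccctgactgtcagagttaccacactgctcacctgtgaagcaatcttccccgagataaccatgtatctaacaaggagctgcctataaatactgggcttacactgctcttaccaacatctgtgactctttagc
S100a8 held 1 match and S100a9 held 2, among 5 of the 8 neutrophil members with a match and 40.7% of all 32851 promoters. The letters searched do not separate the 2 genes in the direction of their counts.

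Camp, the precursor of the antimicrobial peptide cathelicidin, was rare in untreated wells. It had 6, 1 and 0 counts in TG untreated and 48, 11 and 8 in TG SPARC. In IL4c it had 1, 1 and 6 counts untreated and 44, 85 and 73 with SPARC. The groups did not overlap in either injection. It rose with SPARC in IL4c by 4.42 ± 1.02 on the log2 scale (edgeR adjusted p = 0.0103). This call was lost without IL4c untreated 2 (edgeR adjusted p = 0.053), and the value was 5.63 without IL4c untreated 3. In TG the change of 3.46 ± 1.03 did not pass (edgeR adjusted p = 0.0579) and passed with the block (log2 3.55 ± 0.568, edgeR adjusted p = 0.00444).

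**Figure D5:**
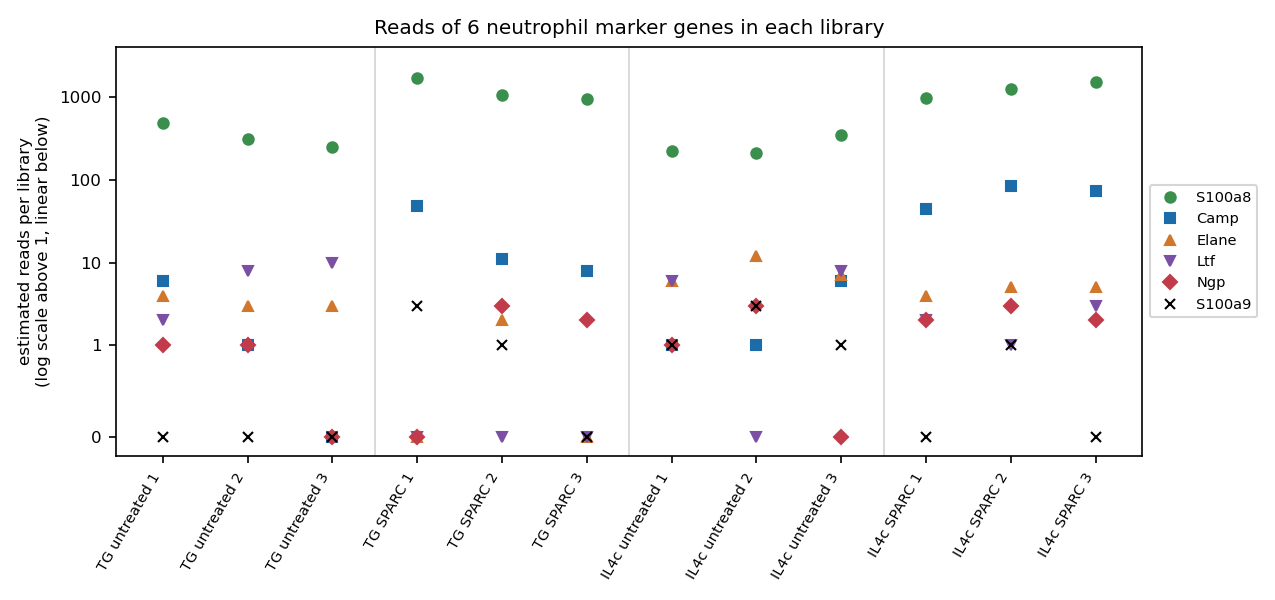
Estimated reads of 6 neutrophil members in each of the 12 libraries, on an axis that is logarithmic above 1 and linear below. S100a8 and Camp are higher in SPARC than in untreated wells of the same injection, while Elane, Ltf, Ngp and S100a9 stay at 12 reads or fewer in every library.

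The other 6 neutrophil members, S100a9 among them, had few reads throughout. Elane, neutrophil elastase, had 4, 3 and 3 counts in TG untreated, 0, 2 and 0 in TG SPARC, 6, 12 and 7 in IL4c untreated and 4, 5 and 5 in IL4c SPARC. It was lower with SPARC in 6 of 6 pairs at these few reads and was not tested. Lactoferrin (Ltf) and Retnlg had at most 10 counts in any library, myeloperoxidase (Mpo) at most 5, and the granule protein Ngp at most 3. The rise of S100a8 and Camp was thus not accompanied by reads of the other 6 members. In the second neutrophil list of 15 genes, 6 were tested, and 1 rose with SPARC in each injection while 0 fell without the block. With the block Mmp9, a gelatinase, rose as well in TG (edgeR adjusted p = 0.0292), and Prtn3 and Cd177 fell in IL4c (edgeR adjusted p = 0.00554 and 0.00778). Several granule or secretory genes of this list were well covered, with 755 to 7697 counts of Mmp8 and 85 to 1231 of Mmp9, and up to 2469 of Prtn3. Other genes of the list had few reads. Ly6g, Ctsg, Stfa1 and Itgb2l had at most 1 count in any library, Stfa2 at most 3 and Stfa2l1 0. Chil1 had at most 10 counts, Cxcr2 at most 22 and Fcnb at most 34. The sum of this list averaged 281 CPM in TG untreated, 834 in TG SPARC, 280 in IL4c untreated and 1665 in IL4c SPARC. The gene that rose in both was Lcn2, the iron-siderophore binder lipocalin-2, by 6.10 ± 1.17 on the log2 scale in TG (SE, edgeR adjusted p = 0.0114) and 7.82 ± 1.26 in IL4c (edgeR adjusted p = 0.00178). Its levels were 18.9, 1.83 and 2.5 CPM in TG untreated and 1215, 172 and 209 CPM in TG SPARC. Csf3r, the G-CSF receptor, which macrophages also carry, had a mean of 175 CPM and was not called.

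Among the dendritic cell members, Zbtb46 differed in its SPARC response between the injections once the pairs were blocked. Zbtb46, a transcription factor of classical dendritic cells, stood at 4.05, 1.67 and 1.68 CPM in TG untreated and 4.75, 1.81 and 1.88 CPM in TG SPARC. In IL4c it stood at 4.12, 5.18 and 4.98 CPM untreated and 2.19, 2.71 and 2.57 CPM with SPARC. In CPM it was slightly higher with SPARC in 3 of 3 TG pairs and lower in 3 of 3 IL4c pairs. In FPKM TG pair 1 was slightly lower, with 1.07 untreated and 1.05 with SPARC. In IL4c its change of -0.93 ± 0.434 did not pass without the block (edgeR adjusted p = 0.139) and passed with it (log2 -0.93 ± 0.124, edgeR adjusted p = 0.00101). In TG the blocked change was 0.17 ± 0.128 (edgeR adjusted p = 0.356).

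Of all tested genes, 0 of 15232 differed in their SPARC response between the injections without the block (1612 at an unadjusted p under 0.05, 364 called by DESeq2 and 0 by limma-voom), and so none of the members did. With the block 3.10% of genes differed, and 1 of the 28 tested members. That member was Zbtb46, whose response was lower in IL4c than in TG by a log2 difference of -1.11 ± 0.178 (SE, edgeR adjusted p = 0.0326). Cd22 had a difference of -0.63 ± 0.237 with the block (edgeR adjusted p = 0.191), and Clec9a one of -2.07 ± 0.547 (edgeR adjusted p = 0.0891). For the other B cell genes the blocked differences ranged from -0.73 (Ebf1, edgeR adjusted p = 0.0628) to -0.08 (Ms4a1, edgeR adjusted p = 0.804), so a smaller decline in TG than in IL4c was not established for any of them. With both TG libraries numbered 1 left out and no block, the difference passed for Cd22 (log2 -0.90, edgeR adjusted p = 0.0301) and Zbtb46 (log2 -1.09, edgeR adjusted p = 0.0446).

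Flt3, the receptor for the growth factor of dendritic cells, separated the injections. It had 210, 39 and 71 counts in TG untreated and 318, 63 and 84 in TG SPARC. In IL4c it had 6, 8 and 2 counts untreated and 10, 7 and 1 with SPARC. It was lower in IL4c than in TG untreated (log2 -3.99 ± 0.982, edgeR adjusted p = 0.0195) and with SPARC (log2 -4.89 ± 0.999, edgeR adjusted p = 0.00848). The untreated call was lost without any 1 of the IL4c untreated libraries (edgeR adjusted p = 0.0575 or more) and its value was -3.13 without TG untreated 1. The call with SPARC was kept without each library in turn, with a value of -3.78 without TG SPARC 1. With the block Flt3 rose with SPARC in TG (log2 0.75 ± 0.196, edgeR adjusted p = 0.0289).

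Clec9a, a receptor for dead cells on cross-presenting dendritic cells, had 23.4, 46.9 and 13.2 estimated counts in TG untreated and 17, 50 and 32.0 in TG SPARC. In IL4c it had 18, 26.6 and 22 untreated and 6, 8 and 12 with SPARC. Its change with SPARC in IL4c was -1.57 ± 0.545 (edgeR adjusted p = 0.0565, and 0.0185 with the block), and those groups did not overlap. It was lower in IL4c than in TG with SPARC (log2 -2.11 ± 0.544, edgeR adjusted p = 0.0222), a call lost without TG SPARC 2 or 3 or IL4c SPARC 1 or 2 (edgeR adjusted p = 0.059 or more). An exon of Clec9a overlaps Clec1b in GENCODE M21. Xcr1, a chemokine receptor of the same cells, had at most 6 counts.

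The second dendritic cell list of 10 genes had 8 tested, of which 1 rose and 1 fell with SPARC in TG, and 2 rose and 1 fell in IL4c. With the block 4 rose and 2 fell in TG, and 3 rose and 3 fell in IL4c, and Ccr7, Ccl22 and Tlr3 rose and Cd209a and Kmo fell in both. Its sum averaged 76.7 CPM in TG untreated, 144 in TG SPARC, 53.6 in IL4c untreated and 70.1 in IL4c SPARC. Tlr3, a receptor for double-stranded RNA and the most abundant of the list, rose by 0.88 ± 0.197 on the log2 scale in TG (SE, edgeR adjusted p = 0.0206) and by 1.17 ± 0.198 in IL4c (edgeR adjusted p = 0.00229). Fscn1, an actin-bundling protein of mature dendritic cells, averaged 19 CPM and was lower in IL4c than in TG untreated (log2 -2.70 ± 0.591, edgeR adjusted p = 0.0126). Cd209a, a lectin used as a marker of monocyte-derived dendritic cells, fell with SPARC in TG (edgeR adjusted p = 0.0125) and in IL4c (edgeR adjusted p = 0.00166), while the sum of the 4 members moved up by a mean log2 ratio of 0.47 ± 0.16 (SD, n = 3 pairs) in TG and down by -0.93 ± 0.058 in IL4c.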

How the data were processed

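PolyA RNA libraries of 12 wells (4 groups of 3) were analysed. The authors deposited a matrix of expected counts per gene, not scaled, of which 19.2% of the values above 0 are not whole, and a matrix of FPKM, which normalises each value to transcript length and depth. STAR, RSEM, CASAVA and bcl2fastq 1.8.4 are named per the submitters' processing notes. The sources used here do not give the build, the annotation or the strand setting. GENCODE identifiers without version matched 98.9% of the rows, in release M21 (GRCm38), from which positions and exon overlaps were taken.

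Expected counts were rounded, filtered with a minimum count of 10 (15232 genes kept) and tested in R 4.3.3 with edgeR 4.0.16 (trimmed mean of M values, robust quasi-likelihood fit over the 12 libraries, Benjamini-Hochberg adjustment over the tested genes, threshold 0.05). Fold changes carry a prior count of 0.125. The script was tested on simulated data. Within an injection, deviations of same-numbered libraries from their group means correlated at 0.471 to 0.754 in 6 of 6 pairs, so the numbers were used as pairs there. In TG, untreated 2 and SPARC 3 correlated at 0.594 and untreated 3 and SPARC 2 at 0.518, beside 0.685 and 0.633 for the same numbers. Numbers 2 and 3 of TG were thus set apart less clearly than number 1. Differently numbered IL4c libraries correlated at -0.524 to 0.258. Across injections same-numbered libraries correlated at -0.221 to 0.259, so the numbers did not pair them. DESeq2 1.42.0, limma 3.58.1 on FPKM and on counts, other scalings and filters, and fits without each library were alternatives. Lineage sums are descriptions without a test.

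The members, the second marker lists and the tests were chosen with earlier results of these data known. Values in all libraries are given for members that passed in at least 1 of the 5 comparisons and for the 3 most abundant of each lineage, and Nkg7, Cpa3 and S100a9 were added after their values were seen. Of the second lists the 2 most abundant genes are named, with those called or well covered (Fcgr1, Mertk, Adgre1, Cd14, Tpsab1, Mmp8, Mmp9, Prtn3, Cd177, Cd209a, Ccr7, Ccl22 and Kmo) added after their values were seen. Also added then were Wt1, Lrrn4, Col1a1, Col3a1, Itga2b, Gp9, Gp1bb, Ly6g, Ctsg, Stfa1, Stfa2, Stfa2l1, Itgb2l, Cxcr2, Fcnb and Chil1.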

Additional observations from a re-analysis of the deposited data

Results flagged for a closer look

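Zbtb46 had within-pair CPM ratios of opposite sign with SPARC in the 2 injections. Its mean within-pair log2 ratio was 0.17 in TG and -0.93 in IL4c, with every pair of an injection on the same side. The small TG change did not pass with or without the block. In FPKM the sign of TG pair 1 differed, with 1.07 untreated and 1.05 with SPARC. The test of the difference, with the pairs as a block, gave -1.11 on the log2 scale (edgeR adjusted p = 0.0326), and without the block it did not pass (edgeR adjusted p = 0.58).

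The sum of the 4 dendritic cell members was higher with SPARC in 3 of 3 TG pairs, by a mean log2 ratio of 0.471, and lower in 3 of 3 IL4c pairs, by a mean of -0.932. The difference between these sums was not tested. Zbtb46 and Flt3 make up most of the sum, and Flt3 was at 10 counts or fewer in each IL4c library.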

How the results depend on the processing

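The number of members called moved by over 1.5 times under these settings. With the replicate block it was 14 for SPARC in TG, 16 for SPARC in IL4c and 1 for the difference of responses, beside 1, 4 and 0 without it. Of all tested genes the block called 27.3%, 45.2% and 3.1%, beside 11.3%, 27.8% and 0% without it. Across injections the libraries share only a number, and a replicate block on it called 6 untreated and 9 with SPARC, beside 4 and 5. Of all tested genes it called 24.3% and 25.2%, beside 21% in both without it. Without both TG libraries numbered 1 the members called were 3 for SPARC in TG, 11 for SPARC in IL4c and 2 for the difference. Of all tested genes, 14.6%, 42.1% and 5.41% were called in those fits. With the replicate block in addition, chosen after seeing the data, the members called were 10, 17 and 3, against 27.5%, 53.6% and 17.3% of all tested genes. DESeq2 called 2 for SPARC in TG and 12 for the injections with SPARC, against 17.3% and 27.5%. For the injections untreated (4 called), limma-voom, a minimum of 5 CPM in 3 libraries and log2(FPKM + 1) or log2(FPKM + 0.1) with limma called 1 each, while FPKM without a filter, only the compared groups, and leaving out both IL4c libraries numbered 3 called 2 each. Of all tested genes the first of these settings called 20% to 27.1% and the last 10.1% to 16.1%. For the injections with SPARC, the 5 CPM minimum and all 3 FPKM settings called 1 each and only the compared groups 3. Of all tested genes they called 9.35% to 24.4% and 17.5%. The 5 CPM minimum called 2 for SPARC in IL4c, against 35.7% of all tested genes. Leaving out each library in turn gave 1 to 2 for SPARC in TG, 2 to 5 for SPARC in IL4c, 1 to 6 for the injections untreated, 2 to 7 for the injections with SPARC and 0 for the difference. All tested genes were called at 4.68% to 13.4%, 15.9% to 33.2%, 8.75% to 29.3%, 11.3% to 27.5% and 0% to 1.78%. The cause was not tested, except that the 5 CPM minimum left 11 members to test and the FPKM filter 16. No called value changed sign under any setting run.

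Without Il7r the T and NK cell sum had a mean within-pair log2 ratio of 0.664 in TG and 0.219 in IL4c, beside -0.753 and -0.687 with it. Without S100a8 the neutrophil sum had 0.99 and 1.79. Total counts without scaling factors moved the median of all genes for the injections untreated from -0.05 to -0.17 and the split of calls from 1548 higher and 1649 lower to 1154 and 2790. Depth limits what can be said of the 12 untested members, whose highest count was 52 (Cd3d) and otherwise at most 18.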
